A study of Mus musculus with 12 samples.

Results

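Interferon-stimulated genes are the genes that cells switch on after sensing interferon, and 43 of them were followed here in mouse liver and in cells purified from it. They were taken by symbol: 34 genes that are classic responders to type I interferon or regulate that response, and 9 guanosine triphosphatases (GTPases) that are best known as targets of interferon-gamma. All 43 had a row among the 16703 genes of the whole-liver table and among the 16273 genes of the table of liver sinusoidal endothelial cells (LSEC), the fenestrated cells that line the hepatic capillaries.

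Type I interferons bind a receptor on nearly all cells, and their signal assembles a complex with STAT2 and IRF9 that binds the interferon-stimulated response element (ISRE) in promoters. Interferon-gamma, a product of T and natural killer cells, acts through the gamma-activated site (GAS). The sets overlap, since IRF1 and the GTPases answer to both kinds of interferon.

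The series addresses how diet-induced nonalcoholic steatohepatitis (NASH), fatty liver with inflammation and cell injury, changes gene expression in C57BL/6 mice. It holds 4 groups of 3 RNA-seq libraries: whole liver of chow-fed mice, whole liver of mice with NASH, LSEC of chow-fed mice and LSEC of mice with NASH. NASH was induced with diet D09100301 of Research Diets, given for 36 weeks. That feeding text stands on all samples, the chow ones included, and no allele or other agent, age or sex is stated. The LSEC were the CD11b-negative nonparenchymal cells held by CD146 beads; CD146 marks endothelium of all kinds, not sinusoidal endothelium alone. The labels do not say that the 3 libraries of a group came from separate animals, so the p-values measure the spread between libraries, which may be technical.

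Each liver library held 47000197 to 57397720 assigned reads, and the LSEC libraries were shallower, at 18527017 to 19402863. The 14 endothelial markers, such as Pecam1, Stab2 and Clec4g, summed to 677616 to 714839 normalized reads in the chow LSEC libraries and 437703 to 478296 in the NASH ones; these defining markers were abundant in every library, as the label says. The 10 general leukocyte markers, such as Ptprc and Tyrobp, were present beside them, at 9026 to 17471 summed normalized reads in chow LSEC and 24931 to 26330 in NASH LSEC. Libraries are numbered as the labels do for liver; for LSEC the numbers are only names, in the order of the table's columns.

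The elements that interferon signals act on can be read directly in the promoters. RefSeq promoter windows of build GRCm38.p6, from 250 bases before to 50 bases after the transcription start, were matched by symbol to 32 of the 43 genes. The ISRE core was searched as GAAANNGAA and the gamma-activated site as TTCNNNGAA, each on both strands. The stretches below lie before the start, in 5′ to 3′ direction of the gene, and were picked after the matches were seen, to show windows with several ISRE cores, windows with a single core, and gamma-activated sites. Capitals mark the matches; a core on the other strand reads TTCNNTTTC.

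Isg15 interferon-stimulated response element, chr4:156200856-156200916, minus strand: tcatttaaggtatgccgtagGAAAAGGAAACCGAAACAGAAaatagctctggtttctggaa
Ifit1 interferon-stimulated response element, chr19:34640760-34640833, plus strand: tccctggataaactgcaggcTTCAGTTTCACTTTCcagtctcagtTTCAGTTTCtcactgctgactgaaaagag
Ifit3 interferon-stimulated response element, chr19:34583354-34583455, plus strand: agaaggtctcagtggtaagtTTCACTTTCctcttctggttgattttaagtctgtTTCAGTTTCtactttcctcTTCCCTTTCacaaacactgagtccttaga
Oas3 interferon-stimulated response element, chr5:120777700-120777754, minus strand: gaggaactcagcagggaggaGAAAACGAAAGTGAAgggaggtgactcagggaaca
Gbp7 interferon-stimulated response element, chr3:142530264-142530312, plus strand: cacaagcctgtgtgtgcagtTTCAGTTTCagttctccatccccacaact
Igtp interferon-stimulated response element, chr11:58199502-58199550, plus strand: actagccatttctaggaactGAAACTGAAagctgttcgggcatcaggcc
Irf1 gamma-activated site, chr11:53769904-53769952, plus strand: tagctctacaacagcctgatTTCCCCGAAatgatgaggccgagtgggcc
Gbp7 gamma-activated site, chr3:142530210-142530277, plus strand: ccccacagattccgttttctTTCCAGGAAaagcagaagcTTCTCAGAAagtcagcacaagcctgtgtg
Igtp gamma-activated site, chr11:58199491-58199539, plus strand: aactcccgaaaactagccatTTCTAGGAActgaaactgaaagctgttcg

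Isg15, Ifit1 and Ifit3 each carried 3 ISRE matches in the printed stretch and Oas3 carried 2, while Gbp7 and Igtp carried 1. The number did not follow the grouping: before the start Gbp3 and Irgm1, which are GTPases, also had 2 ISRE matches, and Rsad2, Ifih1, Ifitm2, Trim30a and Stat2, which are not, had 1. An ISRE core was found in 20 of the 32 windows (62.5%), against 9.76% of 27025 genes with a window. A gamma-activated site was found in 9 of 32 (28.1%), against 9.55% of all genes. Both were found in 6 windows (18.8%, against 1.42%), and 9 windows had neither. Both motifs occurred in both groups: among the GTPases with a window, 6 of 7 had an ISRE core and 3 of 7 a gamma-activated site, and among the other genes 14 of 25 and 6 of 25. In Igtp the printed site and core lie close together, and in 2 of the 32 windows the matches shared a base. A match is a description of these letters and not evidence of binding.

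In whole liver, 35 of the 43 genes were higher in NASH and none was lower, with log2 fold changes of 0.35 to 2.57 among those called (1.28-fold to 5.56-fold). Among all genes of that tissue 25.0% were called higher and 21.0% lower; among the 43 genes 81.4% were higher. The median log2 fold change was 0.97, beside 0.02 for all genes. A gene was called at a limma adjusted p under 0.05, on log2(normalized reads + 1), with Benjamini-Hochberg adjustment over all genes of the table. In 35 genes each NASH library lay above each chow library, which held for 29.8% of all genes. At an unadjusted p under 0.05, 37 of the 43 passed, and the authors' deposited table had 35 genes higher and 0 lower at an adjusted p under 0.05.

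In LSEC, 22 of the 43 genes were higher in NASH and 1 was lower, against 5.24% and 2.86% of all genes in the LSEC table. The median log2 fold change was 0.78, beside 0.00 for all genes, and the genes that rose spanned 0.50 to 3.14 (1.42-fold to 7.78-fold). The NASH libraries lay wholly above the chow libraries for 31 genes, where 16.5% of all genes did so. The authors' deposited table gave 29 higher and 1 lower, beside 1605 and 934 of all 16273 genes. Higher there but not called by limma were Stat2, Isg15, Ifit3, Oas1a, Rtp4, Parp14 and Trim30a (authors' DESeq2 adjusted p from 0.00219 to 0.0363). These counts rest on few libraries: leaving out chow 3, NASH 1, NASH 2 or NASH 3 left 6, 6, 4 and 6 genes higher, while the counts over all genes fell from 853 to 190, 344, 138 and 75. The median stayed at 0.69 to 1.00 with each library left out. Of the 23 LSEC calls, 4 (Irf7, Ifi44, Oasl1 and Zbp1) passed with every library left out in turn. Of the 35 liver calls 30 did, all but Ifih1, Parp14, Gbp7, Irgm1 and Igtp.

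**Figure D1:**
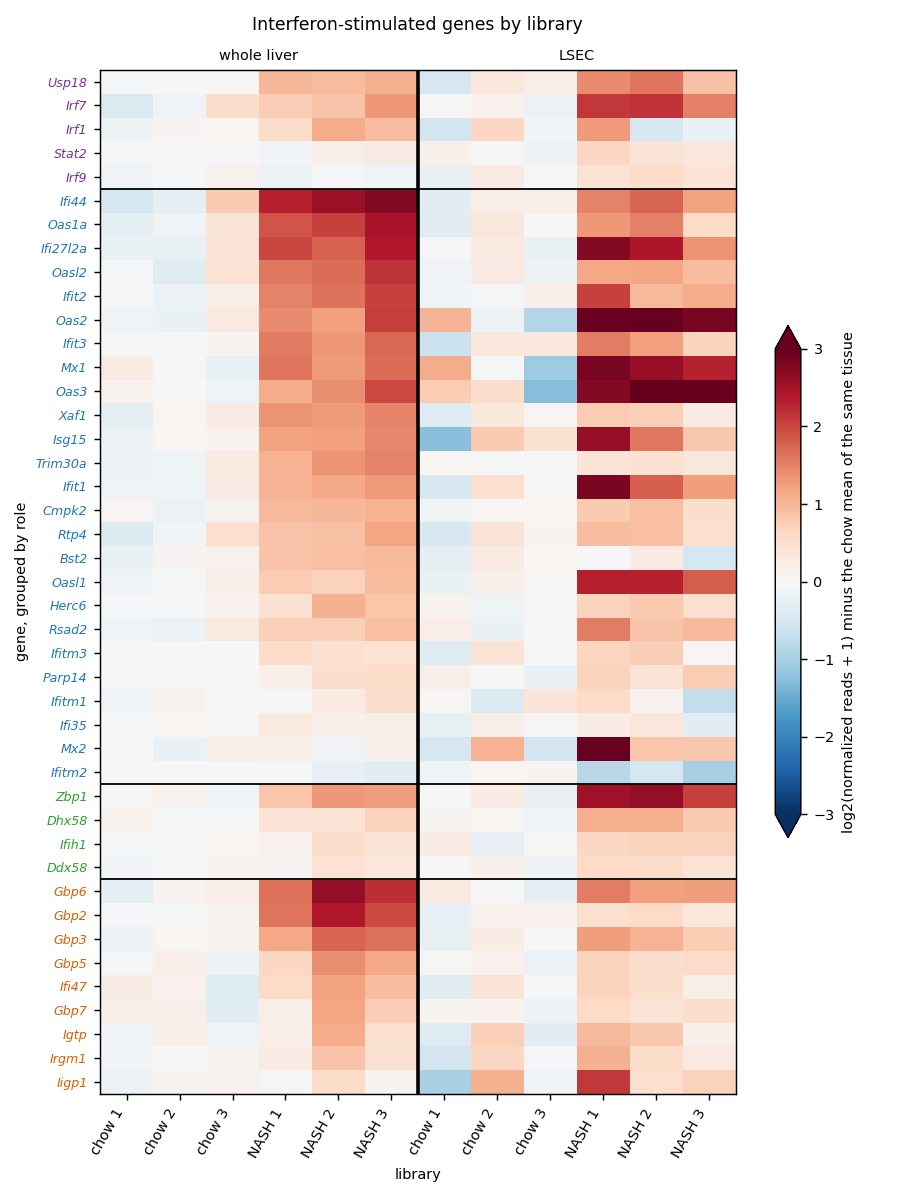
Each row is a gene, grouped by role (regulators purple, antiviral effectors blue, sensors green, GTPases orange), and each column a library; colour is log2(normalized reads + 1) minus the chow mean of the same tissue, and differences beyond 3 share the end colour. The NASH columns are red for most genes in both tissues, with Oas2, Oas3 and Mx1 darker in LSEC and Ifi44 and Gbp6 darker in liver.

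The scaling of the libraries bears on every direction given here. Scaling to total reads in place of the authors' factors shifted the log2 fold changes of the genes by a median of 0.42 in liver and 0.14 in LSEC. It gave 41 of the 43 genes higher in liver and 29 in LSEC, with none lower, beside 7878 higher and 904 lower of all liver genes (4179 and 3512 with the authors' factors) and 1164 and 273 of all LSEC genes (853 and 466). The values below keep the authors' factors. In bulk libraries, fewer cells of a type and less RNA per cell cannot be told apart.

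Markers of leukocytes moved with NASH as well. Over all genes, 25.0% were called higher and 21.0% lower in liver, and 5.24% and 2.86% in LSEC. Of the 10 leukocyte markers 9 were higher in NASH liver (summed normalized reads 14131 to 17415 in chow, 29965 to 43893 in NASH) and 5 in NASH LSEC. Of 12 markers of recruited macrophages, such as Trem2 and Gpnmb, 12 were higher in liver (10091 to 15172 against 53340 to 96014 summed) and 5 in LSEC (9881 to 12850 against 22230 to 57577). T and NK cell markers were higher for 9 of 13 genes in liver (311 to 624 against 1023 to 1544 summed) and for 0 of 13 in LSEC by limma (655 to 1909 against 764 to 1308 summed), where 2 had an unadjusted p under 0.05. The 10 hepatocyte markers, such as Alb, summed to 6726 to 79624 in chow LSEC and 35340 to 72584 in NASH LSEC. Kupffer cell markers were mixed in liver, with 7 of 12 higher and 3 lower, and in LSEC 5 were higher and 1 lower; their sums ran from 13996 to 39780 in chow LSEC and from 59523 to 77612 in NASH LSEC. In liver 6 of 7 neutrophil markers, 2 of 8 B cell and plasmacytoid dendritic cell markers and 7 of 10 stellate markers were higher, and 8 of 10 hepatocyte markers and 7 of 14 endothelial markers lower. In LSEC these numbers were 0 of 7, 0 of 8 and 3 of 10 higher, and 0 of 10 and 4 of 14 lower. The liver share of B cell and plasmacytoid dendritic cell markers called higher, 25.0%, was no more than that of all liver genes. Retnlg, Cxcr2, Mmp8, Chil3 and Ass1 were at 0 in some chow LSEC library. The part of these cells in the results was not tested.

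The regulators come first in the pathway. Irf7, the factor that amplifies interferon production, read 1777, 2223 and 3457 normalized reads in chow liver and 3992, 4344 and 5921 in NASH liver, a log2 fold change of 0.97 (SE 0.22, adjusted p = 0.00628). In LSEC it read 1145, 1213 and 982 in chow and 4795, 4978 and 3157 in NASH, with a log2 fold change of 1.93 (SE 0.19, adjusted p = 0.00493). The groups did not overlap in either tissue, and the rise passed the test in both. Usp18, a protease that removes ISG15 from proteins and damps type I receptor signalling, read 829, 857 and 886 in chow liver and 1710.0, 1646 and 1803 in NASH liver (log2 fold change 1.00, SE 0.088, adjusted p = 3.12e-05). In LSEC its values were 176, 309 and 288 in chow and 668, 759 and 460.1 in NASH (log2 fold change 1.30, SE 0.28, adjusted p = 0.0374). All NASH libraries were above all chow libraries of their tissue, though the LSEC call was lost in 6 of 13 alternatives, among them leaving out chow 1, chow 3 or any NASH library.

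Irf1, a factor induced strongly by interferon-gamma, rose in liver and was not called in LSEC. Its liver values were 1268, 1502 and 1479 in chow and 2068, 3042 and 2670.4 in NASH, a log2 fold change of 0.86 (SE 0.14, adjusted p = 0.000902). In LSEC the chow libraries read 3820.3, 8635 and 5260.4 and the NASH libraries 13436, 3964 and 4834, a log2 fold change of 0.19 (SE 0.49, adjusted p = 0.843) with a 95% interval of -0.96 to 1.33. One LSEC NASH library, NASH 1, stood far above the other NASH libraries, and those lay within the chow range. Irf9 and Stat2, parts of the type I complex, were not called in either tissue. Irf9 read 2413, 2553 and 2836 in chow liver and 2300.2, 2541 and 2378 in NASH liver (log2 fold change -0.11, SE 0.091, adjusted p = 0.349), and 1473, 2019 and 1698 in chow against 2308, 2495 and 2278 in NASH in LSEC (log2 fold change 0.46, SE 0.14, adjusted p = 0.0906). Its liver sign turned positive with total-read scaling. For Stat2 the log2 fold changes were 0.11 (SE 0.10, adjusted p = 0.394) in liver and 0.45 (SE 0.13, adjusted p = 0.0820) in LSEC. Of the 5 regulators, then, 3 were called higher in liver and 2 in LSEC.

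**Figure D2:**
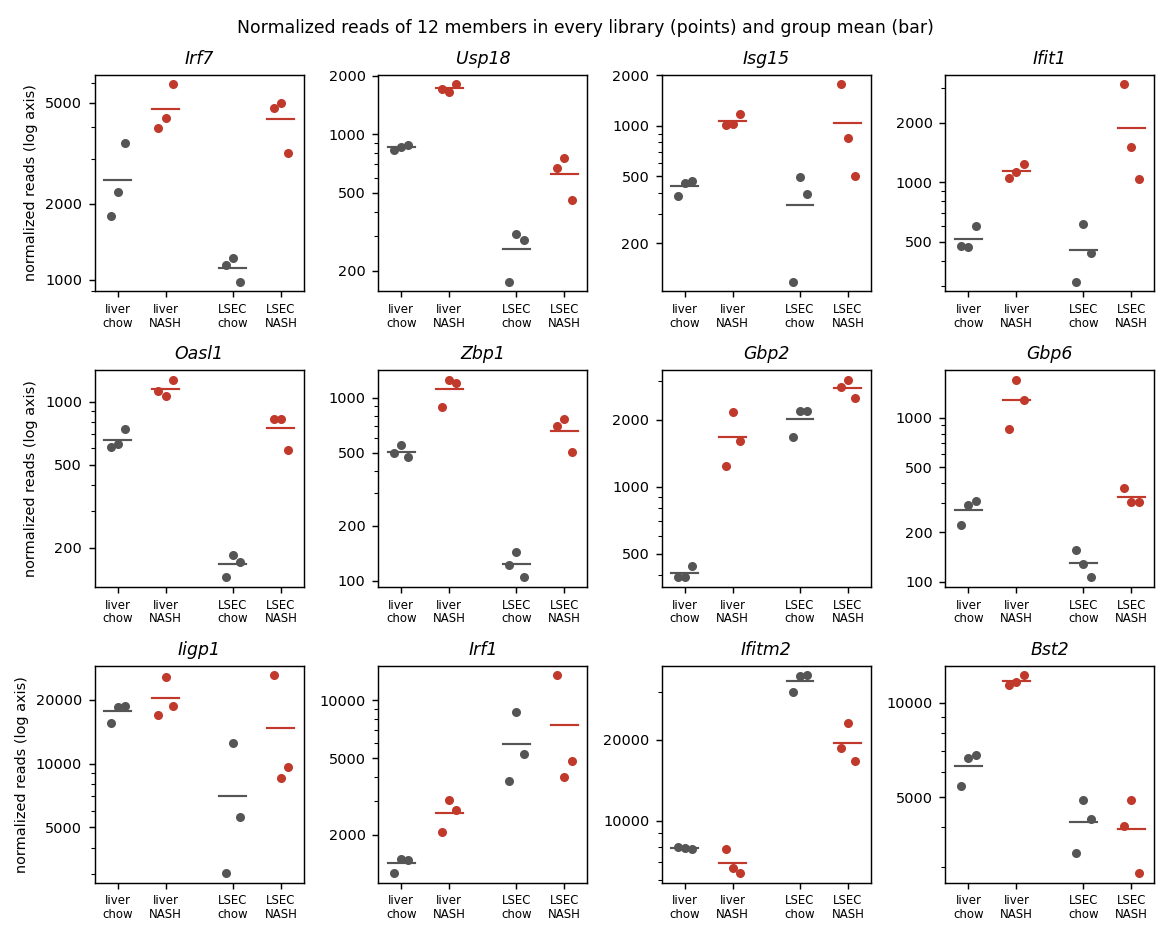
Normalized reads on a log axis for 12 of the 43 genes; points are libraries, bars the means of 3 libraries, grey chow and red NASH. The liver and LSEC tables were normalized apart, so levels are read within a tissue: Irf7, Usp18, Oasl1, Zbp1 and Gbp6 separate by diet in both, while Iigp1 and Irf1 spread widely in LSEC.

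Many of the 25 genes grouped as antiviral effectors encode proteins that block viral entry, translation or replication. Of these 25 genes, 21 were higher in NASH liver and 12 in NASH LSEC. Of the IFIT proteins, IFIT1 binds viral RNA at its 5′ end. Ifit3 read 596, 576 and 639 in chow liver and 1775, 1515 and 1988 in NASH liver, a log2 fold change of 1.53 (SE 0.12, adjusted p = 1.39e-05). Ifit2 read 376, 333 and 428 in chow and 1057, 1174 and 1558 in NASH there (log2 fold change 1.72, SE 0.16, adjusted p = 3.80e-05). Their NASH libraries lay far above their chow libraries and close to one another. In LSEC, Ifit2 passed the test (log2 fold change 1.38, SE 0.27, adjusted p = 0.0310) and Ifit3 did not, at 771, 1534 and 1496 in chow and 3515, 2821 and 1921 in NASH (log2 fold change 1.14, SE 0.32, adjusted p = 0.0747), although its groups did not overlap. The third, Ifit1, passed in both, with log2 fold changes of 1.15 (SE 0.13, adjusted p = 9.55e-05) in liver and 1.95 (SE 0.42, adjusted p = 0.0369) in LSEC. The LSEC calls of Ifit1 and Ifit2 were lost without chow 1, chow 3, NASH 2 or NASH 3, that of Ifit1 also without NASH 1 and that of Ifit2 also without chow 2. The 3 genes lie together on chromosome 19 (Ifit1 at chr19:34640871-34650009, build mm10), and reads of Ifit3 may be shared with its near copy Ifit3b.

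Isg15 encodes a ubiquitin-like protein that is attached to other proteins. Its liver values were 384, 455 and 469 in chow and 1009, 1027 and 1184 in NASH (log2 fold change 1.30, SE 0.12, adjusted p = 4.00e-05), and no library of the groups overlapped. In LSEC the chow libraries read 118, 495 and 394 and the NASH libraries 1765, 849 and 499. NASH 3 exceeded the highest chow library by little there, and the log2 fold change of 1.67 (SE 0.63, adjusted p = 0.148) did not pass. Ifi27l2a, a small mitochondrial protein gene among the strongest type I responders, read 295, 291 and 455 in chow liver and 1355, 1167 and 1806 in NASH liver (log2 fold change 2.06, SE 0.20, adjusted p = 5.76e-05). In LSEC its values were 125, 158 and 115 in chow and 889, 715 and 338 in NASH (log2 fold change 2.18, SE 0.36, adjusted p = 0.0188). It was higher in every NASH library of both tissues, and its reads may be shared with Ifi27l2b beside it; the LSEC call was lost without chow 3, NASH 1 or NASH 2. Ifi44 had the largest log2 fold change of the 43 genes in liver: 91.4, 110.1 and 228 in chow and 672, 799 and 916 in NASH (log2 fold change 2.57, SE 0.29, adjusted p = 0.000125). The LSEC values were 862, 1233 and 1223 in chow and 3068, 3643 and 2528 in NASH (log2 fold change 1.48, SE 0.19, adjusted p = 0.0111), and that call was kept with every library left out in turn.

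Enzymes of the oligoadenylate synthetase family make the messenger that activates RNase L, and the Oasl genes encode related members of the family. All 5 members were higher in NASH liver and 4 in NASH LSEC. Oas1a read 145, 163 and 233 in chow liver and 659.9, 729 and 977 in NASH liver (log2 fold change 2.13, SE 0.21, adjusted p = 5.11e-05). Its LSEC values of 165, 262 and 209.8 in chow and 519, 595 and 319 in NASH separated, with a log2 fold change of 1.14 (SE 0.28, adjusted p = 0.0526) that did not pass. Oas1a and Oas1g are near copies, so their reads are uncertain. Oas2 read 187, 81.6 and 49.1 in chow LSEC and 715, 869 and 660.0 in NASH LSEC (log2 fold change 3.02, SE 0.45, adjusted p = 0.0148), and rose in liver by 1.58 on the log2 scale. Chow 1 was the highest chow LSEC library for this gene, and for Oas3 and Mx1 as well. Oas3 had the largest log2 fold change of the 43 in LSEC, 70.0, 59.8 and 16.4 in chow against 284, 489 and 364 in NASH (log2 fold change 3.14, SE 0.54, adjusted p = 0.0208), and rose by 1.503 on that scale in liver. Oasl2 read 1669, 2162 and 1639 in chow LSEC and 4037, 4087 and 3432 in NASH LSEC (log2 fold change 1.09, SE 0.15, adjusted p = 0.0118). The LSEC calls of Oas2 and Oas3 were lost without any 1 of the NASH libraries, and that of Oasl2 without chow 3 or NASH 2. Oas1a, Oas2 and Oas3 lie together on chromosome 5 (Oas3 at chr5:120753098-120777661).

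Mx1 was higher in both tissues (log2 fold change 1.52 in liver, 2.59 in LSEC). Mx2, annotated as a polymorphic pseudogene, was not called in either; in LSEC it read 93.0, 269.8 and 90.1 in chow and 1388, 234 and 231 in NASH, with NASH 1 alone above chow 2. Rsad2 (viperin), Cmpk2 and Herc6 were called higher in both tissues, with log2 fold changes of 0.78, 1.00 and 0.79 in liver and 1.12, 0.74 and 0.64 in LSEC. The LSEC calls of Mx1, Rsad2, Cmpk2 and Herc6 were each lost without chow 3 or any NASH library, and those of Mx1 and Herc6 also without chow 2. Bst2 (tetherin), Xaf1, Rtp4, Parp14, Trim30a and Ifitm3 were called higher in liver and not in LSEC, with log2 fold changes of 0.91, 1.36, 0.97, 0.41, 1.29 and 0.48 in liver. In LSEC they had -0.094, 0.57, 0.78, 0.60, 0.40 and 0.47, and among these 6 the difference between the tissues was called for Bst2 and Trim30a. The liver call of Parp14 was lost without chow 2, NASH 2 or NASH 3. Ifi35 was called in neither (log2 fold change 0.20 in liver and 0.068 in LSEC).

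The Ifitm genes encode small membrane proteins that hinder viral fusion. Per kilobase of exon, Ifitm3 and Ifitm2 had the highest levels of the 43 genes in LSEC of both diets and in chow liver; in NASH liver Bst2 stood between them. Ifitm2 was the 1 gene called lower. In LSEC it read 30110.0, 34502 and 34686 in chow and 18559, 23044 and 16686 in NASH, a log2 fold change of -0.78 (SE 0.17, adjusted p = 0.0368), with every NASH library below every chow library. Leaving out chow 2, chow 3 or any NASH library ended the call, as did total-read scaling (log2 fold change -0.64, adjusted p = 0.0599). Its liver values were 7966, 7920.3 and 7834 in chow and 7841, 6654 and 6397 in NASH (log2 fold change -0.19, SE 0.094, adjusted p = 0.127); without liver NASH 1 it was called lower there, at -0.28, and with total-read scaling its liver sign turned positive. Ifitm3 was higher in liver (log2 fold change 0.48, SE 0.084, adjusted p = 0.00146), and Ifitm1 was called in neither tissue.

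The 4 sensors bind foreign nucleic acid in the cytoplasm, and all 4 were higher in NASH LSEC. Zbp1, which binds Z-form nucleic acid and can trigger necroptosis, read 501, 549 and 473 in chow liver and 896, 1256 and 1211 in NASH liver (log2 fold change 1.13, SE 0.14, adjusted p = 0.000209). In LSEC it read 121, 144 and 104 in chow and 702, 769 and 505 in NASH (log2 fold change 2.40, SE 0.22, adjusted p = 0.00389). The lowest NASH library was more than any chow library in both tissues. Dhx58 (LGP2), a regulator of the RNA sensors, read 819, 749 and 729 in chow and 1021, 1010.4 and 1227 in NASH in liver (log2 fold change 0.50, SE 0.11, adjusted p = 0.00493) and 335, 329 and 292 in chow and 681, 676 and 546 in NASH in LSEC (log2 fold change 0.99, SE 0.15, adjusted p = 0.0164). Its LSEC call was lost without chow 3 or any NASH library, while that of Zbp1 was kept with every library left out in turn. Ifih1 (MDA5), a sensor of long double-stranded RNA, read 2020.4, 2086 and 2173 in chow and 2292, 2996 and 2739 in NASH in liver (log2 fold change 0.35, SE 0.11, adjusted p = 0.0238). Its LSEC values were 1478, 1067 and 1300.0 in chow and 1952, 2014 and 2039 in NASH (log2 fold change 0.66, SE 0.14, adjusted p = 0.0374). The groups did not overlap in either tissue, but the liver call was lost without chow 1, chow 2, NASH 2 or NASH 3, and the LSEC call without chow 2, chow 3 or any NASH library. Ddx58 (RIG-I), which senses RNA ends, was called in LSEC, 2097, 2332 and 1906 in chow against 3177, 3114 and 2804 in NASH (log2 fold change 0.52, SE 0.12, adjusted p = 0.0439), and not in liver (log2 fold change 0.28, SE 0.11, adjusted p = 0.0604). It was the 1 gene called higher in LSEC and not in liver; its difference between the tissues was -0.24 (SE 0.18, adjusted p = 0.395), which was not called, and its LSEC call was lost with edgeR and without chow 1, chow 3 or any NASH library.

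The 9 GTPases act on the membranes around intracellular microbes. In liver 8 of 9 were higher in NASH, with a median log2 fold change of 0.91, beside 27 of 34 and 0.97 for the other genes. In LSEC 4 of 9 were higher (median 0.63), beside 18 of 34 (median 1.04). By count and median the GTPases and the type I genes were close in liver, and in LSEC the GTPases had the lower median; this contrast is a description with no test.

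Guanylate-binding proteins, which coat and break open vacuoles that hold bacteria and parasites, were all higher in liver. Gbp2 read 393, 395 and 439.9 in chow liver and 1243, 2164 and 1606 in NASH liver, a log2 fold change of 1.99 (SE 0.18, adjusted p = 3.37e-05). Gbp3 read 397, 465 and 479.9 in chow and 994, 1505 and 1402 in NASH (log2 fold change 1.52, SE 0.16, adjusted p = 7.87e-05). Gbp6 read 222, 292 and 312 in chow and 860.0, 1704 and 1277 in NASH (log2 fold change 2.17, SE 0.23, adjusted p = 8.10e-05), the largest rise among the GTPases. For these 3 genes the NASH libraries lay far above the chow libraries, with NASH 2 the highest and NASH 1 the lowest. Gbp5, which also promotes inflammasome assembly, read 147, 169 and 135 in chow and 230.4, 395 and 335 in NASH (log2 fold change 1.05, SE 0.21, adjusted p = 0.00286). Gbp7 rose by 0.70 (SE 0.23, adjusted p = 0.0325) on the log2 scale, with its NASH 1 library inside the chow range, and the call was lost without chow 2, chow 3, NASH 2 or NASH 3. Gbp2, Gbp3, Gbp5 and Gbp7 lie in 1 cluster on chromosome 3 (Gbp2 at chr3:142620602-142638008) and Gbp6 on chromosome 5 (chr5:105270702-105293698); they are similar in sequence, and how reads shared between them were counted is not given in the sources used here.

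In LSEC 4 of the 5 guanylate-binding proteins were called. Gbp6 read 156, 127 and 106 in chow and 374, 304 and 305 in NASH (log2 fold change 1.34, SE 0.21, adjusted p = 0.0167). Gbp3 read 788, 1075 and 901 in chow and 2187, 1894 and 1541 in NASH (log2 fold change 1.02, SE 0.18, adjusted p = 0.0210). Gbp5 read 611, 656 and 528 in chow and 967, 853 and 881 in NASH (log2 fold change 0.59, SE 0.13, adjusted p = 0.0420). The groups were separate for each of these, and so they were for Gbp7, at 2204, 2243 and 1855 in chow and 3161, 2768 and 2996 in NASH (log2 fold change 0.50, SE 0.12, adjusted p = 0.0496). Each of the 4 calls was lost without chow 3 or without any NASH library; those of Gbp5 and Gbp7 were also lost without chow 1 or chow 2, and that of Gbp7 with edgeR. Gbp2 was not called in LSEC, at 1679.8, 2189 and 2192 in chow and 2818, 3026 and 2506 in NASH (log2 fold change 0.47, SE 0.15, adjusted p = 0.0958), though its groups too were separate.

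The other 4 GTPases are immunity-related GTPases, which strip or guard vacuole membranes; this split of the 9 was made after the values were seen. In liver 3 of 4 were higher: Ifi47 read 1133, 1073 and 761 in chow and 1466, 2248 and 1866 in NASH (log2 fold change 0.91, SE 0.18, adjusted p = 0.00286), Irgm1 rose by 0.52 and Igtp by 0.59 on the log2 scale. The call of Irgm1 was lost without chow 1, and that of Igtp without chow 1, chow 3, NASH 2 or NASH 3. None of the 4 was called in LSEC by limma, where 0 of 4 had an unadjusted p under 0.05 and the libraries of the diets overlapped for each. For each of the 4, LSEC chow 2 was the highest chow library, and every NASH library lay above chow 1 and chow 3. Iigp1 was the fourth most abundant of the 43 genes per kilobase of exon in liver, at 3028 normalized reads per kilobase in chow and 3501 in NASH. It read 15607, 18489.6 and 18796 in chow liver and 16938, 25606 and 18622 in NASH liver (log2 fold change 0.19, SE 0.15, adjusted p = 0.331). In LSEC it read 3051, 12563 and 5581 in chow and 26076, 8527 and 9607 in NASH (log2 fold change 1.11, SE 0.59, adjusted p = 0.283). A single NASH library, NASH 1, stood above all chow libraries there, and the 95% interval of the log2 fold change ran from -0.28 to 2.49.

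**Figure D3:**
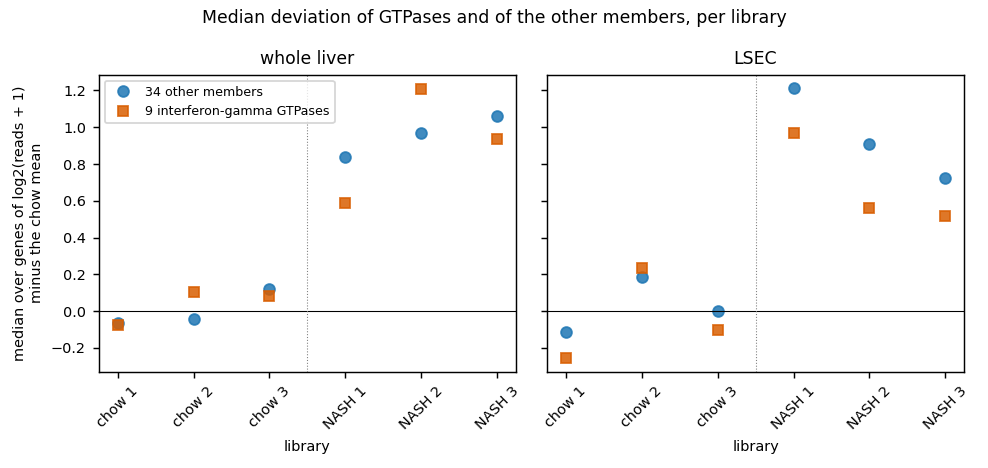
Points are the median over genes of log2(normalized reads + 1) minus the chow mean, 1 point per library, for the 9 GTPases (orange squares) and the other 34 genes (blue circles). The GTPases peak in NASH 2 in liver (1.21) and the other genes in NASH 3 (1.06), and both peak in NASH 1 in LSEC (0.97 and 1.21).

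The libraries within the NASH liver group ordered the 2 sets differently. All 9 GTPases had their highest NASH value in NASH 2, while 24 of the other 34 genes had it in NASH 3, 6 in NASH 2 and 4 in NASH 1; over all genes these shares were 31.6% for NASH 2, 36.6% for NASH 3 and 31.9% for NASH 1. In LSEC, 8 of 9 GTPases were highest in NASH 1, and the other 34 genes were spread as 16 in NASH 1, 16 in NASH 2 and 2 in NASH 3, where all genes gave 30.3%, 37.8% and 31.9%. Irf1 was highest in the same libraries as most GTPases in both tissues, liver NASH 2 and LSEC NASH 1, and so was the RNA sensor Ddx58. Genes of a set share their libraries and are not independent, so these counts describe 3 libraries per group and carry no test.

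A test of the difference between the tissues asked which genes responded unequally. The log2 fold change in liver minus that in LSEC was called for 7 of the 43 genes, 4 higher in liver and 3 higher in LSEC, where 10.1% and 8.34% of the 15766 genes in both tables were called. That is no more than the background share. The median difference was 0.01 over the 43 genes, 0.45 over the GTPases and -0.16 over the others, beside 0.05 over all genes; with total-read scaling these medians were 0.28, 0.73, 0.12 and 0.32. Among the GTPases 6 of 9 differences were positive.

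Gbp2 had the largest called difference, 1.52 (SE 0.29, adjusted p = 0.00532), higher in liver. Bst2, which tethers virions to the cell surface, differed by 1.00 (SE 0.25, adjusted p = 0.0184): it read 5431, 6634 and 6804 in chow liver and 11389.8, 11624 and 12199.6 in NASH liver, and 3326, 4890.4 and 4254 in chow LSEC and 4055, 4896 and 2869.5 in NASH LSEC. Its liver groups were wide apart and its LSEC groups overlapped. Trim30a differed by 0.89 (SE 0.24, adjusted p = 0.0243); it read 501, 516 and 688 in chow against 1156, 1433 and 1584 in NASH in liver and 2189.6, 2113 and 2056 in chow against 2779.8, 2917 and 2697 in NASH in LSEC. The Ifitm2 difference was 0.59 (SE 0.19, adjusted p = 0.0496), with the lower call in LSEC. Oasl1, an inhibitor of Irf7 translation, differed by -1.35 (SE 0.22, adjusted p = 0.00262), the rise being larger in LSEC: it read 609, 629 and 740.4 in chow against 1121, 1063 and 1273 in NASH in liver (log2 fold change 0.81) and 144, 184 and 171 in chow against 831, 824 and 589 in NASH in LSEC (log2 fold change 2.15, SE 0.19, adjusted p = 0.00378). Zbp1 differed by -1.27 (SE 0.27, adjusted p = 0.00925) and Irf9 by -0.57 (SE 0.17, adjusted p = 0.0343). The Ifitm2 and Irf9 differences were lost in 11 of 17 alternatives each, edgeR among them. Those of Bst2 and Trim30a were lost without LSEC chow 3 or LSEC NASH 3, and that of Trim30a also without LSEC NASH 1.

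**Figure D4:**
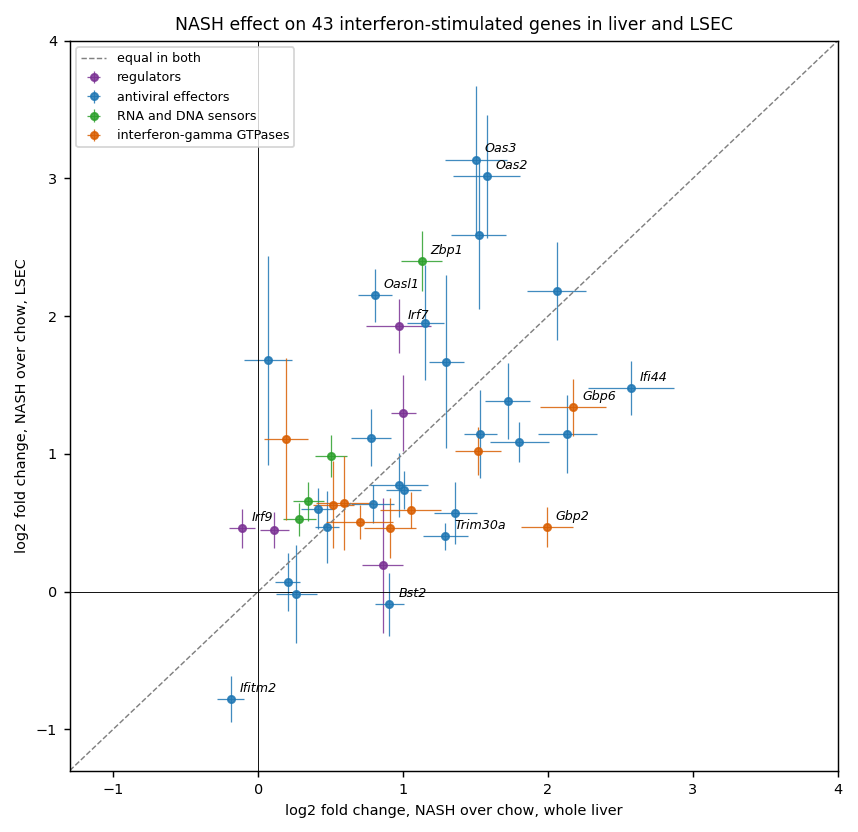
Log2 fold change of NASH over chow in whole liver (x axis) against LSEC (y axis) for the 43 genes, coloured by role; bars are 1 SE and the dashed line marks equal effects. Most points lie above 0 on both axes; Gbp2 (1.99 and 0.47) and Bst2 (0.91 and -0.09, or 0.046 in LSEC with total-read scaling) lie below the dashed line, and Oasl1 (0.81 and 2.15) and Zbp1 (1.13 and 2.40) above it.

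Called higher in both tissues were 21 of the 43 genes, which is 21 of 35 liver calls and 21 of 22 LSEC calls. They were Irf7, Usp18, Ifit1, Ifit2, Ifi44, Oasl1, Oasl2, Oas2, Oas3, Rsad2, Mx1, Ifi27l2a, Cmpk2, Herc6, Ifih1, Dhx58, Zbp1, Gbp3, Gbp5, Gbp6 and Gbp7. Of the 15766 genes that both tables share, 4.02% were called higher in both. A further 14 were called higher in liver and not in LSEC, where 21.2% of all genes were. Ddx58 was called higher in LSEC and not in liver, 6 were called in neither, and Ifitm2 was called lower in LSEC. By promoter, of the windows with an ISRE core 17 of 20 belonged to genes higher in liver and 9 of 20 to genes higher in LSEC, and without one, 9 of 12 and 6 of 12.

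Upstream of these genes stand the interferons themselves. Of 13 ligand genes looked up, Ifnk and Ifng had a row in the liver table and Ifng in the LSEC table. Ifng read 0, 3.24 and 1.03 in chow liver and 9.18, 9.05 and 4.83 in NASH liver (log2 fold change 2.04, SE 0.62, adjusted p = 0.0228), a rise that rests on few reads. The authors' deposited DESeq2 test did not call it in liver (adjusted p = 0.0950). LSEC read 44.9, 82.7 and 25.6 in chow and 47.3, 15.9 and 20.4 in NASH (log2 fold change -0.85, SE 0.56, adjusted p = 0.381), and the diets overlapped. Among the receptors, Il10rb, a chain of the interferon-lambda receptor and of other cytokine receptors, rose in liver by 1.16 on the log2 scale. Ifngr1, the ligand-binding chain of the interferon-gamma receptor, rose there by 0.80. Neither Il10rb nor Ifngr1 was called in LSEC (log2 fold changes -0.14 and 0.35). Ifnlr1, the other chain of the interferon-lambda receptor, rose in liver by 2.34 on few reads (means of 6.01 in chow and 32.6 in NASH). It was not called in LSEC (log2 fold change 1.16). Ifnar2, a chain of the type I interferon receptor, was called lower in liver by limma (log2 fold change -0.27, adjusted p = 0.0196) and not called in LSEC (-0.059). The other chain, Ifnar1, was called in neither (log2 fold change -0.10 in liver and 0.38 in LSEC).

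The list for the induction of interferon held sensors and factors that induce it and also Trex1, Samhd1 and Adar, which restrain it. Of its 17 genes 11 were called higher and 3 lower in liver, and 4 higher and 0 lower in LSEC. The shares of all genes were 25.0% and 21.0% in liver and 5.24% and 2.86% in LSEC, and they apply to the lists that follow as well. Ikbke, a kinase that activates interferon regulatory factors, rose in both (log2 fold change 1.05 in liver, 2.09 in LSEC). In liver Samhd1, which depletes nucleotides, and Tmem173 (STING), the adaptor of DNA sensing, rose by 1.00 and 1.41 on the log2 scale. In LSEC Adar, which edits double-stranded RNA, and Tlr7, an endosomal RNA receptor, rose by 0.58 and 2.44 on that scale. Called lower in liver were Mavs, Irf3 and Ticam1, with log2 fold changes of -0.81, -0.48 and -0.37. None of these was called in LSEC by limma, at -0.17, -0.57 and 0.11. The authors' deposited DESeq2 test had Irf3 lower there (adjusted p = 0.0166).

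Further target genes were counted in the same way, and the values in parentheses are log2 fold changes. Of 47 other type I targets 33 were higher and 1 lower in liver, with the smallest adjusted p for Ifi27l2b (3.25), Ly6a (1.98) and Ly6e (1.91), and 12 were higher and 0 lower in LSEC, with the smallest for Slfn2 (2.07), Slfn9 (1.91) and Mnda (1.62). Of 11 other interferon-inducible GTPases 8 were higher and 1 lower in liver, with Gbp10 (3.25), Gbp11 (2.08) and Tgtp1 (2.66) among them, and 2 were higher in LSEC, Gm12250 (1.31) and Irgm2 (0.82). Of 11 other interferon-gamma targets 9 were higher in liver, among them Ciita, the master regulator of MHC class II genes (2.995), Slamf8 (2.63) and the T cell chemokine Cxcl9 (2.47). In LSEC 2 of those 11 were called, Fcgr1 (2.46) and Slamf8 (2.82), both genes of myeloid cells. Cxcl9 read 2928, 4908 and 3876 in chow LSEC and 14976, 7223 and 7027 in NASH LSEC, separate in every library but not called by limma (log2 fold change 1.26, SE 0.32, adjusted p = 0.0600), and NASH 1 was again the highest. The authors' deposited DESeq2 test had 5 of the 11 higher in LSEC, Cxcl9 among them (adjusted p = 0.00178), beside 1605 of all 16273 genes.

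**Figure D5:**
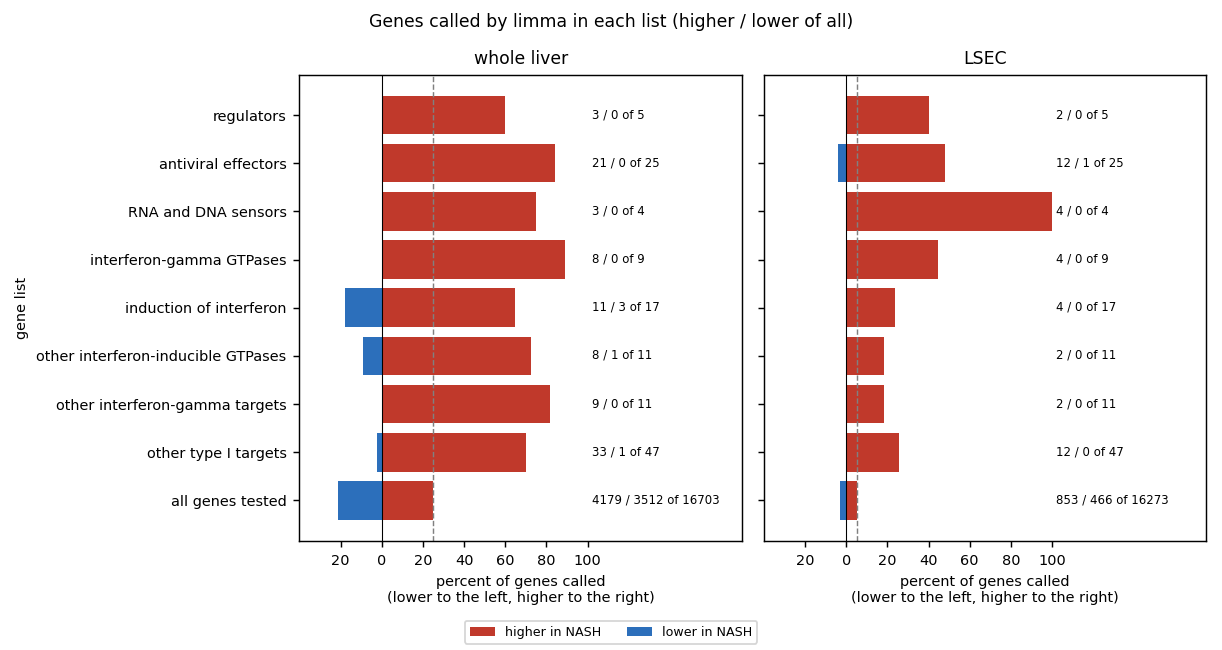
Bars give the percent of each gene list called higher (red, to the right) or lower (blue, to the left) in NASH by limma, with the counts at the side; the dashed line is the share of all genes called higher. In LSEC all 4 sensors were called higher, against 5.24% of all genes.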

How the data were processed

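RNA was sequenced from 6 whole-liver and 6 LSEC libraries. The authors used STAR, HTSeq, DESeq2, FastQC and build mm10, per the submitters' processing notes, and the liver kit (TruSeq RNA v2, per the labels) does not mark strand. The deposited signal columns are reads divided by 1 factor per library: whole reads were recovered for 100% of values (within 0.01), and the authors' factors were kept. The authors' log2 fold changes, p-values and adjusted p-values, deposited in the same tables, are quoted only as such.

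Differences were tested with limma 3.58.1 (R 4.3.3; variance trend, two-sided) on log2(normalized reads + 1), each tissue alone, unfiltered, over all genes. Exon lengths came from GENCODE (mm10). This scale understates folds of low genes. The tissue difference used the 12 libraries, 15766 genes in both tables and 1 weight per tissue. Alternatives were pseudocounts of 0.1 and 10, a mean of at least 10 normalized reads, edgeR 4.0.16, DESeq2 1.42.0, total-read scaling, an adjusted p under 0.01, a replicate block and leaving out each library. Genes named in full were, per tissue and role, up to 5 called genes with the smallest adjusted p and a mean of at least 50 normalized reads, those that fell, and the called differences; up to 3 were named per other list. Other genes are given by group, and some (Irf9, Stat2, Isg15 and Ifit3 in LSEC, Cxcl9 in LSEC, Iigp1, Ifnar1, Ifnar2, Ifnlr1, Mavs, Irf3, Ticam1) for their role after their values were seen. The genes and lists were chosen with earlier results of these data known. The script was tested on simulated data. There 2-fold changes were called for 90% of the changed genes in liver, 23% in LSEC and 20% for the tissue difference. For 4-fold changes these shares were 98%, 85% and 87%. Of the genes called there, 3.09%, 6.09% and 8.55% were unchanged ones. Only 100 genes were changed at each fold, a far smaller part than was called in liver. The adjusted p depends on that part, so these shares are not the power in the real data. Results that need 1 further gene of the pathway are not reported here.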

Additional observations from a re-analysis of the deposited data

Results flagged for a closer look

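For 7 of the 43 genes the change with NASH differed between whole liver and LSEC by the test of the difference itself (limma, adjusted over 15766 genes), 4 higher in liver and 3 higher in LSEC; among all 15766 genes 10.1% and 8.34% were called, so these counts do not exceed the background. The difference of log2 fold changes, liver minus LSEC, was 1.52 for Gbp2 (95% interval 0.88 to 2.17), 1.00 for Bst2 (0.45 to 1.55), 0.89 for Trim30a (0.37 to 1.41) and 0.59 for Ifitm2 (0.18 to 1.00). It was -1.35 for Oasl1 (-1.84 to -0.86), -1.27 for Zbp1 (-1.87 to -0.67) and -0.57 for Irf9 (-0.93 to -0.21). Leukocyte markers were higher in NASH for 9 of 10 genes in liver and 5 of 10 in LSEC, beside 25.0% and 5.24% of all genes. The part of leukocytes in these differences was not tested.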

How the results depend on the processing

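None of the called genes of the 43 (35 in liver, 23 in LSEC, 7 for the difference) changed direction under the alternatives run. With 1 library left out, the genes called higher numbered 31 to 36 in liver and 4 to 16 in LSEC, and those called lower 0 to 1 in both; the difference between tissues gave 1 to 6 genes higher in liver and 2 to 5 higher in LSEC. The 1 liver gene lower came without NASH 1. In LSEC the gene called lower was lost without chow 2, chow 3, NASH 1, NASH 2 or NASH 3 and with total-read scaling (0 lower), and an adjusted p under 0.01 left 3 higher and 0 lower; fewer genes pass a stricter threshold by construction. Without LSEC chow 1, 5 genes differed toward LSEC; without LSEC chow 3, NASH 1 or NASH 3, 1, 2 and 1 differed toward liver. Outside these, the cause of the changes was not tested. Over all LSEC genes DESeq2 called 1581 higher and 922 lower and an adjusted p under 0.01 left 81 and 45, beside 853 and 466; an adjusted p under 0.01 left 2105 lower in liver, beside 3512. The replicate block in liver gave 36 genes higher and 0 lower; same-numbered liver libraries shared only a number (correlations of their deviations -0.014, -0.016 and 0.098), and not every library correlated best with its own. No paired analysis was possible in LSEC because its columns carry no replicate numbers. Promoter matches before the start alone numbered 17 (ISRE core) and 7 (gamma-activated site). The LSEC libraries were shallower than the liver ones, and whether depth limits their calls was not tested.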
